A study of Mus musculus with 3 samples.

Results

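The nuclei described here are 886 nuclei of brown adipose tissue of 24-month-old mice that held many transcripts of a small set of immediate early genes. They were chosen by their own counts. Barcodes of the 24-month library with 3000 to 8000 unique molecular identifiers (UMIs, 1 per captured RNA molecule) numbered 3588, and 3442 of them held fewer than 3 UMIs summed over 8 genes of other cell types (Flt1, Ptprb, Pdgfra, Dcn, Mrc1, F13a1, Abcc9 and Trpc6). Nuclei with at least 4 UMIs summed over Fos, Fosb, Egr1, Junb, Atf3 and Nr4a1, called the rule genes below, form the high class, which is 886 of the 3442 (25.7%, exact 95% binomial interval 24.3 to 27.2) and of 30000 barcodes in the series. The 1693 nuclei with 0 or 1 such UMIs form the low class, and 863 nuclei with 2 or 3 lie between them. Single-nuclei RNA sequencing was done on interscapular brown fat of wild type mice at 2, 12 and 24 months, with 1 library per age. The methods give 4 male mice on the C57BL/6J background, without saying how they were divided among the libraries, and a homogenisation meant to favour adipocyte nuclei before sorting. Nuclei of 1 library are not replicates, so no test was made, and every interval below covers counting error only.

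Immediate early genes are transcribed within minutes of a stimulus without new protein synthesis, and most encode transcription factors or RNA-binding regulators that shape the later response. In brown adipocytes the classic stimulus is noradrenaline from sympathetic nerves, which raises cAMP through beta-adrenergic receptors, activates protein kinase A and, through the factor CREB, switches on genes that include the NR4A nuclear receptors and the deiodinase Dio2. Fos, Fosb and Junb are subunits of the factor AP-1, Egr1 is a zinc-finger factor induced by growth factor signalling, Atf3 is a stress-responsive factor of the ATF/CREB family, and Nr4a1 is an orphan nuclear receptor.

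The libraries held 28977002 to 45819738 UMIs in 10000 barcodes each, and the nuclei of the depth window had medians of 3954, 4602 and 4776.5 UMIs at 2, 12 and 24 months. The same rule found 14 of 2975 nuclei at 2 months (0.471%, interval 0.258 to 0.788) and 10 of 5087 at 12 months (0.197%, interval 0.0943 to 0.361). After 3000 UMIs were drawn at random from each nucleus, the shares were 0.303%, 0.0983% and 12.8%, so the 24-month share stood above those of the younger libraries at matched depth too. Age and library cannot be told apart here. Between 20 and 28 barcodes were shared by each pair of libraries, and 6 of the 886 high nuclei carried a barcode also seen at 2 or 12 months. Nuclei of the high class were deeper than those of the low class, with medians of 5330.5 and 4553 UMIs, while genes seen per nucleus after thinning to 3000 UMIs were close, at 1570 and 1561. Mitochondrial transcripts were 0.0129% of UMIs in the high class and 0.0167% in the low class.

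**Figure D1:**
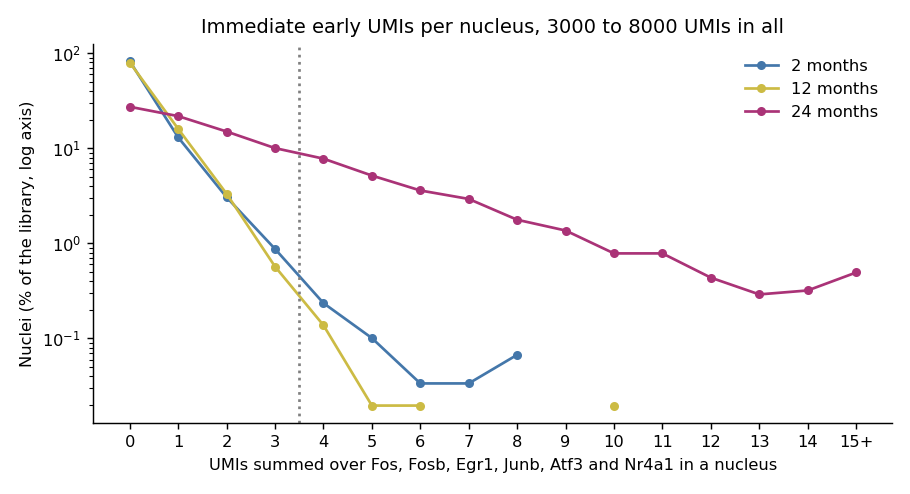
The share of nuclei (percent of the library's nuclei in the window, log axis) is plotted against the UMIs of the 6 rule genes in a nucleus, with 1 line per age and a dotted line at the threshold of 4. The 24-month line declines slowly and reaches a maximum of 25 UMIs, whereas the 2- and 12-month lines drop steeply and end at maxima of 8 and 10.

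The counts had no gap at the threshold. Summed rule UMIs per nucleus had a variance of 3.37 times their mean at 24 months, against 1.68 at 2 months and 1.32 at 12 months, where counts drawn at a single common rate and equal depth would give 1. The 346 nuclei just outside the rule, with 3 UMIs, had 482 counts of Nr4a1 per 1000000 UMIs (CPM), and the 268 just inside, with 4 UMIs, had 629 CPM. The high class is the upper range of a continuous spread of counts.

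The label given to these nuclei, immediate early responding adipocytes, was checked against both parts of the name. For adipocytes, a list of 12 markers summed to 18835 CPM in the high class and 18801 CPM in the low class (exact intervals 18711 to 18959 and 18707 to 18896). In 24-month nuclei with at least 5 UMIs of a marker pair of another cell type, the same list stood at 12314 to 17102 CPM. The high class lay only somewhat above, so the summed list sets it little apart from them. Those nuclei had no limit on depth, and they held Ucp1 at 993 to 1270 CPM. Whether their list counts came from free RNA, doublets or the nuclei themselves was not tested. At least 3 UMIs of the list were held by 100% of the high nuclei and also by 99.2% to 100% of those other nuclei, so holding them does not tell an adipocyte apart. The low counts of other cell types' markers in both classes follow in part from the rule, which kept out nuclei with 3 or more UMIs of 8 such genes. For an immediate early response the label held mostly for 1 gene. Nr4a1 made up 84.3% of the rule UMIs in the high class, followed by Egr1 with 8.16%, Junb with 4.40%, Atf3 with 1.57%, Fos with 1.29% and Fosb with 0.282%. In 439 of the 886 nuclei (49.5%) every rule UMI came from Nr4a1, and 718 (81.0%) held at least 4 Nr4a1 UMIs alone. Egr1 was seen in 262 high nuclei (29.6%), 96 (10.8%) held at least 3 of the 6 genes, 13 held at least 4 of them, and 21 (2.37%) held no Nr4a1. These are nuclei high in Nr4a1, part of which also held Egr1 or AP-1 transcripts.

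The levels of the rule genes follow from the choice of nuclei and are given as a description. Nr4a1 stood at 1014 CPM in the high class, 387 CPM in the nuclei between and 69.1 CPM in the low class. Egr1 stood at 98.1, 40.9 and 9.47 CPM, and Junb at 52.9, 33.0 and 9.22 CPM. Atf3, Fos and Fosb were far scarcer even in the high class, at 18.9, 15.5 and 3.40 CPM. Within single nuclei the genes were only loosely tied, with a Pearson correlation of 0.14 between Nr4a1 and Egr1 and 0.18 between Egr1 and Fos across 3442 nuclei that share 1 library and its depth spread, which in counts this sparse is no finding. Over all 24-month nuclei of the window, Nr4a1 was at 408 CPM and Egr1 at 41.7 CPM, against 41.6 and 0.944 CPM at 2 months and 39.0 and 1.01 CPM at 12 months. Every rule gene was above both younger libraries at 24 months.

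**Figure D2:**
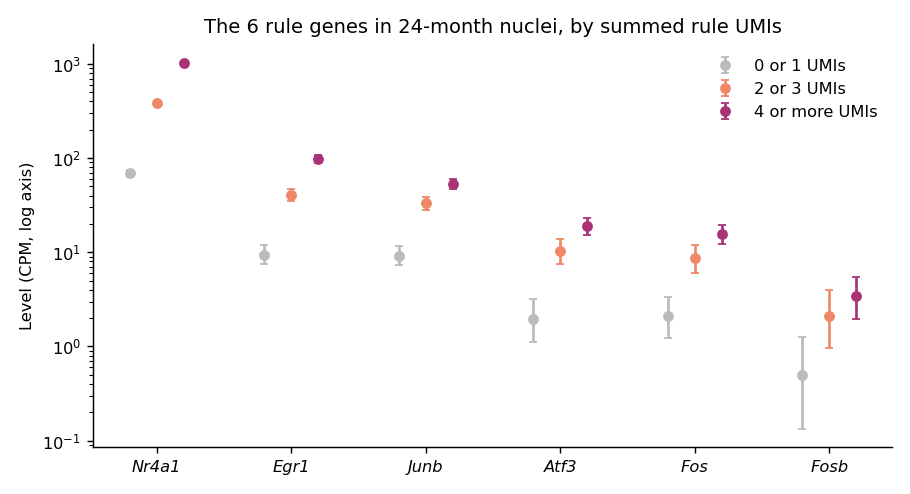
Each point is the level of 1 rule gene (CPM, log axis) summed over 24-month nuclei with 0 or 1 (grey), 2 or 3 (orange) or 4 or more (purple) rule UMIs, with exact 95% Poisson intervals. Nr4a1 reaches 1014 CPM in the high class, roughly the level of a well expressed metabolic gene, while Fosb stays at 3.40 CPM.

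High Nr4a1 in the 24-month library was not limited to the nuclei of the depth window. Nuclei with at least 5 UMIs of the endothelial pair Flt1 and Ptprb had 236 CPM of Nr4a1 (58 nuclei), those with the fibroblast pair Pdgfra and Dcn 185 CPM (101 nuclei), those with the macrophage pair Mrc1 and F13a1 249 CPM (78 nuclei) and those with the pericyte pair Abcc9 and Trpc6 243 CPM (120 nuclei). The 3145 barcodes with fewer than 1000 UMIs, of which 17.1% held an Nr4a1 UMI at a median of 631 UMIs, had 289 CPM. All of these Nr4a1 levels stood below the 408 CPM of the window's nuclei taken without choice, and above the window levels of the younger libraries. Egr1 was ordered otherwise. At 24 months it stood at 236 CPM in the endothelial nuclei, 55.2% of which held it, and at 66.4 CPM below 1000 UMIs. It stood at 52.6, 46.5 and 18.3 CPM in the fibroblast, pericyte and macrophage nuclei, against 41.7 CPM in the window. At 2 months, 14 endothelial nuclei had 314 CPM of Egr1, and at 12 months 103 had 77.4 CPM. Between 25.6% and 32.7% of the nuclei of other types held an Nr4a1 UMI, at median depths of 1975 to 3655 UMIs, against 64.8% of the window's nuclei at 4776.5. The part of free RNA in the Nr4a1 counts of single nuclei was not tested.

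The sequences before the start of 4 of these genes are shown because the results turn on them: Nr4a1 carries the rule, Nr4a2 is its close relative outside the rule and stands high in the same nuclei, and Fos and Junb are rule genes that contribute little. Each run is the 250 bases before the start site in RefSeq (GRCm38.p6), 5′ to 3′ on the gene's strand, and capitals mark TGACG or its reverse complement CGTCA, the core letters of the cAMP response element that CREB recognises. They lie at chr15:101266596-101266845 on the plus strand for Nr4a1, chr2:57124004-57124253 on the minus strand for Nr4a2, chr12:85473640-85473889 on the plus strand for Fos and chr8:84978749-84978998 on the minus strand for Junb.
Nr4a1: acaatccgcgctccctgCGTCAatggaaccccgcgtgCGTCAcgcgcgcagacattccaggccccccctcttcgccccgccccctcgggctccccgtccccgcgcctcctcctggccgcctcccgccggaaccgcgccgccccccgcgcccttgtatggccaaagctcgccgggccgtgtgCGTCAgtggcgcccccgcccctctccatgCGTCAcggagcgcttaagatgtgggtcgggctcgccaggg
Nr4a2: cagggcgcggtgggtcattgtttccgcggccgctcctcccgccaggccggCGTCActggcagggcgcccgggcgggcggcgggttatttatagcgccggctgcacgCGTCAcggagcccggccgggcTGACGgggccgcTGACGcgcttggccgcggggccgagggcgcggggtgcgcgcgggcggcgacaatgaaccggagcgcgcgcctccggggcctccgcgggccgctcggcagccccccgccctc
Fos: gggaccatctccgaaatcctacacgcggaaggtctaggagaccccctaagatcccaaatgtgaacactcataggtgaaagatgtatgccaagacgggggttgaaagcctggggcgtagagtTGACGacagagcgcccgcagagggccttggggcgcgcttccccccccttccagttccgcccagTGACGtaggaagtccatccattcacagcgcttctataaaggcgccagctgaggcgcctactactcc
Junb: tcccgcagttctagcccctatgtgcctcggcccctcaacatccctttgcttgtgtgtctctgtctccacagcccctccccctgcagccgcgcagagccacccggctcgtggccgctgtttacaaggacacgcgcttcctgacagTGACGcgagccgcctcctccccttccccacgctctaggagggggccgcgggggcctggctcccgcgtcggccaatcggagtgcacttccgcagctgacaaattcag

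In these runs the capitals begin 233, 213, 69 and 40 bases before the start of Nr4a1, and 200, 144, 123 and 111 bases before that of Nr4a2. Fos has 2, at 129 and 66 bases, and Junb has 1, at 106 bases. Searched on both strands over windows of 300 bases that also take in the first 50 transcribed bases, TGACG occurred at least 1 time in 20.8% of 32851 windows and 4 or more times in 0.231% (76 windows). Nr4a1, Nr4a2 and Nr4a3 each had 4. The palindrome TGACGTCA, which holds the shorter word on both strands, occurred in 1.79% of windows, among them those of Btg2 and Dio2 with 1 each. TGANTCA, the AP-1 site, was in 7.81% of windows and the CArG box bound by SRF in 1.63%. Neither was in the windows of the 11 genes matched of 14 looked up. Egr1, Ier2 and Sik1 had no window to search, and sites more than 250 bases before a start were not looked for. The absence therefore does not say that these genes lack such sites. Irs2 and Jun had none of these letters in their windows. A match is a description of the letters and not a bound site. The window of Nr4a1 belongs to a start inside the annotated gene, which spans chr15:101254269-101274795. That of Atf3 also lies wholly inside its annotated gene. The windows of Dio2 and Irs2 lie wholly upstream of their annotated genes, so the bases beside those annotated starts were not searched.

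Across all other genes the high and low classes were much alike. Of 6237 genes with at least 20 CPM in either class and 30 UMIs in both together, 19 (0.305%) were at least 1.5-fold higher in the high class and 14 (0.224%) at least 1.5-fold lower, and the median log2 ratio was 0.00. At 1.2-fold, 4.73% were higher and 4.57% lower. The highest ratio belonged to Btg2, an antiproliferative immediate early gene that recruits the mRNA deadenylation machinery, at 24.2 CPM against 9.72 CPM (2.49-fold, interval 1.85 to 3.36). Within 4000 to 6000 UMIs, an alternative window, Btg2 was at 1.44-fold, below the 1.5-fold line, while Ier2 was at 2.26-fold and Prlr at 2.65-fold. Ier2, a small nuclear immediate early protein, stood at 47.3 against 26.8 CPM (1.77-fold, 1.46 to 2.14). Irs2, the insulin receptor substrate and a CREB target in liver, stood at 145 against 92.6 CPM (1.57-fold, 1.41 to 1.74), and Nr4a2 at 77.9 against 50.8 CPM (1.53-fold, 1.33 to 1.77).

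The other genes among the 15 highest belonged to several kinds. Prlr, the prolactin receptor, was 1.69-fold higher (1.28 to 2.25) and Npr1, the receptor of atrial natriuretic peptide that makes cGMP, 1.57-fold (1.18 to 2.08). Genes best known from nerve and muscle membranes were there too, with the scaffold gene Lrrc7 at 1.86-fold and the calcium channel subunits Cacna2d3 at 1.60-fold and Cacnb2 at 1.56-fold. Col4a5, a basement membrane collagen, was at 1.63-fold, Inafm1 and Lgals9, a galectin, at 1.58-fold each, and the deubiquitinase Usp2 and the autophagy initiation subunit Atg101 at 1.53-fold each. All of these were low genes, with 21.0 to 60.1 CPM in the high class. Each of their intervals lay above 1, which follows in part from picking the highest ratios and is no support. Among the genes named, Btg2, Prlr, Npr1, Col4a5, Inafm1 and Lgals9 reached the 20 CPM minimum in the high class only. When the low nuclei were weighted to the depth distribution of the high ones, 20 genes were at least 1.5-fold higher and 12 lower.

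**Figure D3:**
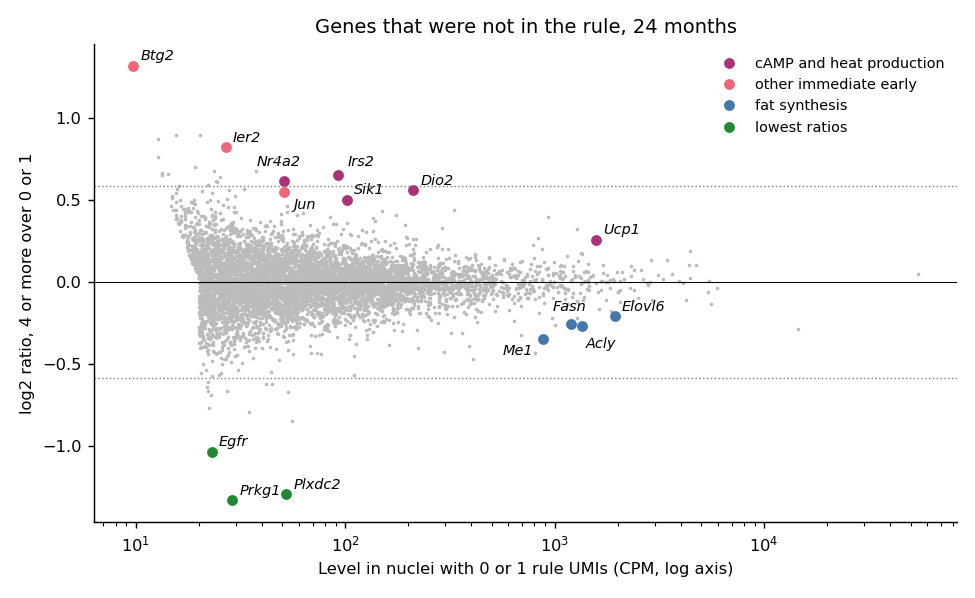
Each grey point is a gene with at least 20 CPM in either class, placed by its level in the low class (CPM, log axis) and its log2 ratio of high over low, with dotted lines at 1.5-fold. Btg2, Ier2, Irs2 and Nr4a2 lie above the upper line, Dio2, Sik1 and Jun near it, and the genes of fat synthesis sit slightly below 0 at high expression.

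Immediate early genes outside the rule stood higher in the high class as a list but not throughout. Of 43 listed genes, 27 were measured with at least 30 UMIs, and 13 of those were at least 1.2-fold higher and 2 at least 1.2-fold lower, against 12.1% and 13.5% of 11334 measured genes. At 1.5-fold, 7 were higher and 1 was lower, against 2.70% and 3.94%. Their median log2 ratio was 0.25, against 0.00 over all measured genes, and their summed level was 1340 against 1162 CPM (1.15-fold, 1.12 to 1.19). Besides Btg2, Ier2 and Nr4a2, the matricellular gene Ccn1 was 2.67-fold higher (1.52 to 4.79, from 34 and 22 UMIs), the third NR4A receptor Nr4a3 1.86-fold (1.04 to 3.35) and the phosphatase subunit Ppp1r15a 1.73-fold (1.09 to 2.73). Nr4a3 rested on few UMIs, and with Nr4a1 left out of the rule it was at 0.675 (0.176 to 1.85, from 4 and 44 UMIs). Zfp36, which marks AU-rich mRNAs for decay, was at 19.3 against 11.9 CPM (1.62-fold, 1.20 to 2.18), and Jun, the main partner of Fos, at 74.7 against 51.2 CPM (1.46-fold, 1.26 to 1.69).

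Other members of that list sat at the same level in both classes. Fosl2, a Fos relative, was at 24.6 and 24.5 CPM, Rgs2, an inhibitor of G protein signalling, at 77.3 and 77.2 CPM, and Btg1, a relative of Btg2, at 30.6 and 30.5 CPM. Pim1, a kinase, stood at 217 and 221 CPM and Tiparp at 115 and 111 CPM. Ier3, the anti-apoptotic Mcl1 and Klf6 were at 0.939, 0.950 and 0.848 of their low-class level, with intervals that span 1. Of the wider AP-1 and ATF/CREB family, 20 genes were measured with a median log2 ratio of 0.01 and a summed ratio of 1.02 (0.995 to 1.05). Feedback genes of the ERK pathway, 11 measured, had a median of 0.12. Dusp1, a phosphatase that switches off MAP kinases, stood at 129 against 106 CPM (1.22-fold, 1.10 to 1.35), but Dusp10 was at 428 against 444 CPM and the list summed to a ratio of 1.02 (0.988 to 1.06).

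Genes of cAMP signalling and CREB targets stood slightly higher as a list. Of 29 listed, 25 were measured, 8 of them at least 1.2-fold higher and 1 lower, against 12.1% and 13.5% of all measured genes. At 1.5-fold, 3 were higher and 1 was lower, against 2.70% and 3.94%. Nr4a2 counts in this list and in that of other immediate early genes. The median log2 ratio was 0.10 and the list summed to a ratio of 1.06 (1.05 to 1.07). Dio2, which turns thyroxine into the active hormone inside brown adipocytes, stood at 311 against 212 CPM (1.47-fold, 1.37 to 1.58). Sik1, a CREB-induced kinase that restrains CREB coactivators, stood at 144 against 102 CPM (1.42-fold, 1.28 to 1.57). Pck1, the enzyme that supplies glycerol for triglyceride synthesis in fat, stood at 1596 against 1274 CPM (1.25-fold, 1.22 to 1.29), and Pkia, an inhibitor peptide of protein kinase A, at 27.8 against 21.0 CPM (1.32-fold, 1.05 to 1.67).

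Several other genes of the cAMP list were closer to level. Ppargc1a, the coactivator that drives mitochondrial biogenesis, was at 1150 against 1072 CPM (1.07-fold, 1.04 to 1.11), the repressor and activator gene Crem at 1.16-fold (1.01 to 1.31) and the G protein gene Gnas at 1.10-fold (1.08 to 1.12). The clock gene Per1, another CREB target, was at 19.7 CPM in both classes. The phosphodiesterases Pde3b and Pde4d were at 1.02 and 0.986 of the low-class level, the catalytic subunit Prkaca at 0.986 and Vegfa, the vascular growth factor, at 0.936 (0.902 to 0.971). The 4 listed genes Fgf21, Bmp8b, Adcy5 and Gpr3 had too few UMIs to be measured.

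Ucp1, the uncoupling protein that makes heat, stood at 1879 CPM in the high class against 1570 CPM in the low class (1.20-fold, 1.16 to 1.23, just short of the 1.2-fold line). Among 22 genes of thermogenesis, which were all measured, 1 was at least 1.2-fold higher and 1 lower, and the median log2 ratio was 0.01. These shares were below the 12.1% and 13.5% of all measured genes. They were near the 4.73% and 4.57% of genes with at least 20 CPM in either class. The 1 higher gene was Irf4, a factor induced by fasting and cAMP in fat, at 16.4 against 12.2 CPM, an interval that spans 1 (1.34-fold, 0.984 to 1.83). Ryr2, a calcium release channel, was 1.16-fold higher (1.09 to 1.24) and Cidea, a lipid droplet protein of brown fat, 1.06-fold (1.02 to 1.10). The receptor of noradrenaline itself, Adrb3, was lower, at 220 against 258 CPM (0.854, 0.792 to 0.920), while Adrb1 was at 81.9 against 78.0 CPM. Prdm16, Esrrg and Ppargc1b, which set brown fat identity and mitochondrial genes, were at 0.958, 1.01 and 1.01.

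The same genes were followed over the whole range of rule UMIs, in 942, 751, 863, 446, 333 and 107 nuclei with 0, 1, 2 to 3, 4 to 5, 6 to 9 and at least 10 of them. Dio2 was at 187, 242, 262, 279, 323 and 397 CPM, higher at each step. Ucp1 was also higher at each step, from 1533 to 2054 CPM, and Ier2 from 23.2 to 58.6 CPM. Median depth rose at each step too, from 4502.5 to 5712 UMIs. Fibroblast and progenitor markers stood at 42.0 CPM in nuclei with no rule UMI and 8.14 CPM in those with at least 10. The part of depth and of such markers in these orders was not tested. Nr4a2 stood at 48.0 CPM in nuclei with none and 114 CPM in those with at least 10, Irs2 at 86.2 and 181 CPM, Sik1 at 99.6 and 197 CPM and Btg2 at 7.37 and 52.1 CPM. The ends differed by 2.37-fold for Nr4a2 (1.79 to 3.12), 2.13-fold for Dio2 (1.84 to 2.46) and 7.07-fold for Btg2 (4.21 to 11.9), larger than between the classes. Ppargc1a had no such order, at 1086 CPM in nuclei with no rule UMI and 1055 CPM in those with at least 10, and neither did Prlr, which was highest with 6 to 9 rule UMIs, at 25.4 CPM, and with at least 10 stood at 1.01 times its level in nuclei with none (0.415 to 2.12).

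**Figure D4:**
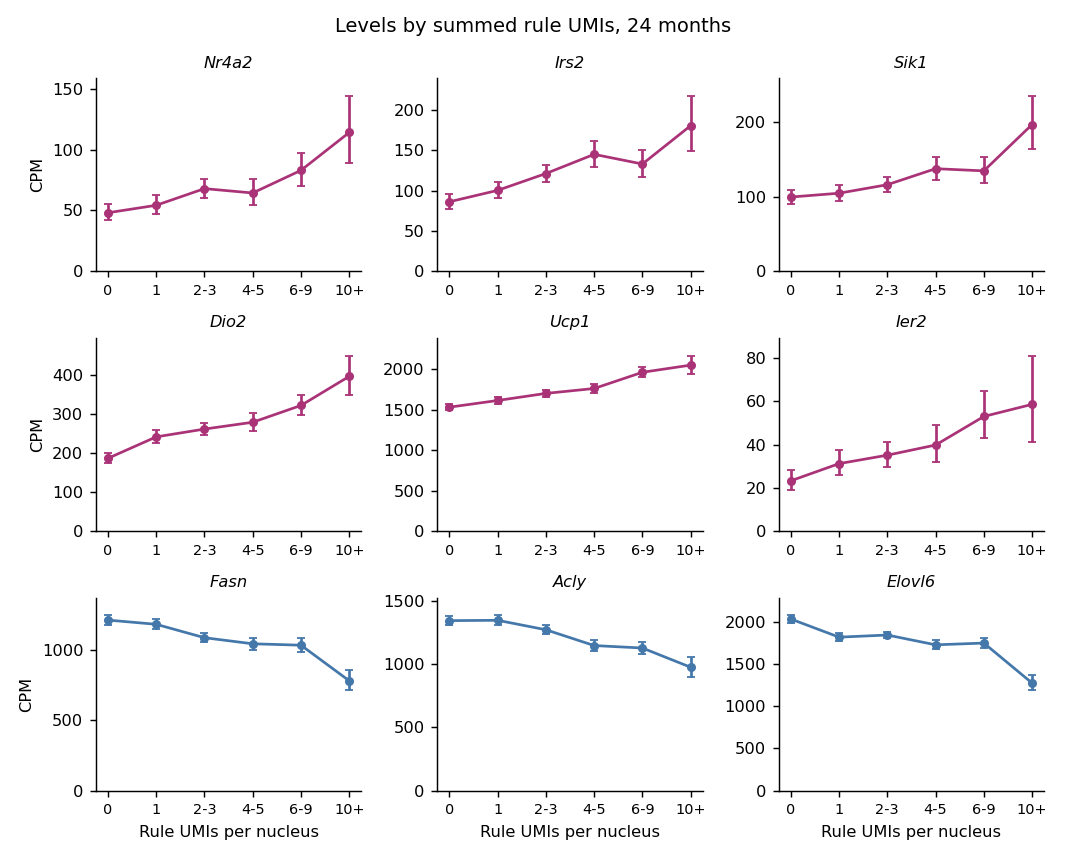
Each panel gives the level of 1 gene (CPM, from 0) in 24-month nuclei with 0, 1, 2 to 3, 4 to 5, 6 to 9 and 10 or more rule UMIs, with exact 95% Poisson intervals. Dio2, Ucp1 and Ier2 are higher at every step to the right, whereas Fasn, Acly and Elovl6 end lowest in the nuclei with the most rule UMIs, at 780, 976 and 1275 CPM.

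Genes of fat synthesis stood lower as a list. Of its 15 genes, which were all measured, 1 had a ratio above 1, against 49.1% of measured genes, the median log2 ratio was -0.15 and the summed level was 0.888 of that in the low class (0.880 to 0.896). None was at least 1.2-fold higher and 4 were at least 1.2-fold lower, against 12.1% and 13.5% of all measured genes. Me1, malic enzyme, which supplies NADPH, stood at 691 against 878 CPM (0.787, 0.755 to 0.820) and the desaturase Scd1 at 298 against 390 CPM (0.762, 0.716 to 0.812). Acly, which makes cytosolic acetyl-CoA, stood at 1117 against 1345 CPM (0.831, 0.804 to 0.858), Fasn, fatty acid synthase, at 1005 against 1197 CPM (0.839, 0.810 to 0.869) and the elongase Elovl6 at 1677 against 1937 CPM (0.866, 0.843 to 0.890). Acaca, acetyl-CoA carboxylase, was at 0.911 and Mlxipl, the sugar-sensing factor ChREBP, at 0.921 (0.897 to 0.945). Thrsp, a lipogenic gene of thyroid hormone, was the exception at 1.04 (0.974 to 1.10). In nuclei with at least 10 rule UMIs against none, Fasn was at 0.644 (0.586 to 0.708) and Elovl6 at 0.627 (0.582 to 0.675).

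Lipid storage and fat burning were nearly level. Of 19 measured genes of lipolysis and storage, 3 were at least 1.2-fold higher and none lower. The shares were 12.1% and 13.5% of all measured genes, and 4.73% and 4.57% of those with at least 20 CPM in either class. The count of higher genes was near the share of all measured genes and above that of the better expressed ones. The 3 were Dgat2, the last step of triglyceride synthesis, at 1008 against 835 CPM, Angptl4, an inhibitor of lipoprotein lipase, at 237 against 197 CPM, and the droplet coat protein Plin3 at 53.9 against 44.0 CPM. The lipases Pnpla2 and Lipe and the droplet protein Plin1 were at 1.05, 1.03 and 1.03. Fatty acid oxidation, 18 genes, had a median log2 ratio of 0.04 and a summed ratio of 1.07 (1.06 to 1.08), in which Ppara, the factor that controls the pathway, was the most abundant gene, at 5023 against 4402 CPM (1.14-fold, 1.12 to 1.16). Glycolysis, 18 genes, and the nuclear genes of oxidative phosphorylation, 36 genes, had medians of -0.01 and 0.00.

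Transcripts of the mitochondrial genome, of which a nucleus should hold none of its own, were lower. Of 10 measured genes, 5 were at least 1.2-fold lower and none higher, against 13.5% and 12.1% of all measured genes, the median log2 ratio was -0.31 and the sum was 129 against 167 CPM (0.773, 0.701 to 0.851). In nuclei with no rule UMI the list stood at 185 CPM, and in those with at least 10 at 86.3 CPM. Leaving mitochondrial genes out of the total moved neither count of genes past 1.5-fold by more than 1.5 times.

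Lists of other stress and hormone responses stood near the median of all genes. The median log2 ratio was 0.00 for heat shock (13 measured genes), 0.00 for genes of integrated stress and protein misfolding (14), -0.01 for NRF2 targets (11), -0.02 for hypoxia (8), -0.03 for p53 targets (10), -0.06 for NF-kB and cytokine genes (10), 0.01 for glucocorticoid targets (10), 0.04 for the circadian clock (18) and 0.04 for SRF cofactor targets (7). Single members departed from their lists. The pseudokinase Trib3 was 1.53-fold higher (1.01 to 2.31) and its regulator Atf4 1.20-fold (1.03 to 1.40), while Atf5, of the same response, was at 0.633 (0.484 to 0.820). Atf5 did not stay apart from its list under other settings, at 0.920 after thinning to 3000 UMIs, 0.983 within 4000 to 6000 UMIs and 0.957 without Nr4a1 in the rule. Irf1 was 1.39-fold higher (1.03 to 1.88) and Nfkb1 at 0.850 (0.769 to 0.937). The glucocorticoid list summed to 1.10 (1.07 to 1.13) through Pdk4, a brake on pyruvate oxidation at 1520 against 1352 CPM, while Tsc22d3 and Klf9 were at 1.02 and 1.01. The actin genes Actb and Actg1 were 1.26-fold (1.05 to 1.50) and 1.22-fold (1.07 to 1.39) higher.

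Pyroptosis, the inflammatory cell death that is a main question of the study, could hardly be read in these nuclei. Of 12 listed genes only Nek7, Pycard and Ninj1 had 30 UMIs, with ratios of 1.06 (0.956 to 1.18), 1.01 (0.584 to 1.71) and 0.967 (0.586 to 1.57). For the other genes, among them Casp1, Gsdmd, Nlrp1b and Il18, a difference was not detectable at this depth.

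**Figure D5:**
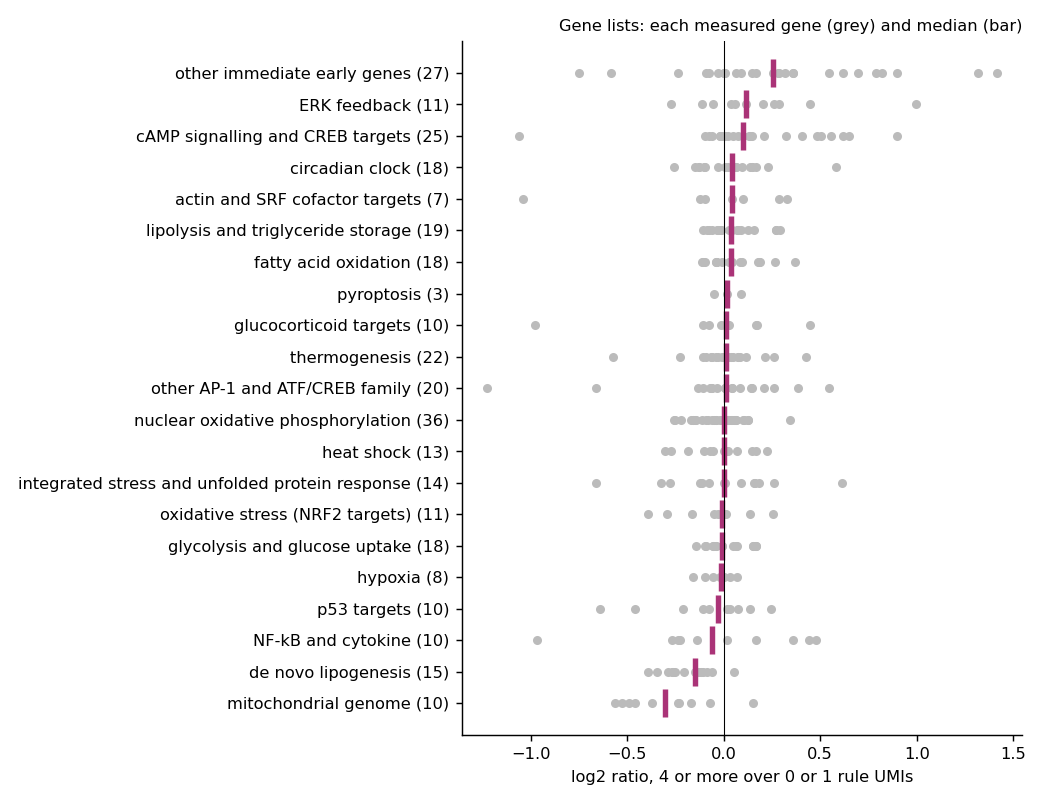
Each row is a gene list with its number of measured genes, grey points are the log2 ratios of single genes (high over low) and the purple bar is their median. Among the lists plotted, which leave out the cell type markers, other immediate early genes have the highest median (0.25) and the mitochondrial genome and de novo lipogenesis the lowest (-0.31 and -0.15), while most centre on 0.

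The lowest ratios belonged to 3 genes that are also expressed outside adipocytes, and markers of fibroblasts and skeletal muscle were lower beside them. Prkg1, the cGMP-dependent kinase abundant in smooth muscle and stroma, stood at 11.5 against 28.8 CPM (0.398, 0.291 to 0.538), Plxdc2 at 21.4 against 52.4 CPM (0.409, 0.326 to 0.509) and Egfr at 11.3 against 23.0 CPM (0.489, 0.354 to 0.667). In the same comparison fibroblast and progenitor markers summed to 13.4 against 36.4 CPM over 9 genes, Pi16 being at 0 in the high class. Skeletal muscle markers summed to 7.01 against 21.0 CPM over 6 genes. Of the muscle UMIs of the low class, 149 lay in nuclei with no rule UMI and 22 in those with 1. At least 3 muscle UMIs were held by 1 nucleus of each class, so this sum may rest on few nuclei. Endothelial markers were at 19.1 against 23.0 CPM, macrophage markers at 20.2 against 24.0 CPM, pericyte and smooth muscle markers at 84.7 against 89.7 CPM, Schwann cell markers at 45.0 against 46.5 CPM, lymphocyte markers at 7.43 against 5.41 CPM and red blood cell markers at 3.40 against 4.43 CPM. The ratios of these lists all had intervals that span 1, such as 0.639 to 1.07 for endothelial and 0.855 to 2.19 for lymphocyte markers. At least 3 UMIs of the fibroblast list were held by 2 of 886 high nuclei and 20 of 1693 low nuclei. Without nuclei holding 3 or more UMIs of any such list, an alternative added after seeing the data, Prkg1 was at 0.673, Plxdc2 at 0.823, Egfr at 0.886 and the adhesion gene Cadm1, at first 0.630, at 0.987, and 7 genes in place of 14 were at least 1.5-fold lower.

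For the other low genes the ratio without those nuclei was between 0.568 and 0.700, which for 4 of them, Rims4, Hephl1, Auts2 and Dock10, no longer reached 1.5-fold. Nnat, an imprinted membrane protein gene of the endoplasmic reticulum, stood at 31.2 against 56.0 CPM (0.558, 0.460 to 0.673) and at 0.585 without them. Nacc1, a transcriptional repressor, stood at 20.2 against 34.8 CPM (0.579, 0.454 to 0.734) and at 0.593. Tmem132b was at 0.588, Vrk3, a kinase of the vaccinia-related family, at 0.622, Rims4 at 0.633, Hephl1, a copper-dependent ferroxidase, at 0.644, Auts2 and Dock10 at 0.651 each, the splicing protein gene Snrnp27 at 0.656 and Abraxas1, a BRCA1 complex scaffold, at 0.674. With Nr4a1 left out of the rule, Nnat, Auts2 and Dock10 turned direction, to 1.76, 1.37 and 1.20, as did Egfr, to 1.24, and Vrk3 was at 0.954. These too are low genes, with 13.2 to 31.2 CPM in the high class, and they were picked for their low ratios. Tmem132b, Vrk3, Rims4, Hephl1, Snrnp27 and Abraxas1 reached the 20 CPM minimum in the low class only.

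Because Nr4a1 carries the rule, the rule was taken apart in 2 ways. By Nr4a1 alone, 718 nuclei with at least 4 UMIs were set against 1943 with 0 or 1, which leaves the other 5 rule genes free. Egr1 was then at 63.8 against 33.8 CPM (1.89-fold, 1.59 to 2.24), Fos 1.76-fold (1.13 to 2.70), Junb 1.56-fold (1.26 to 1.94), Fosb 2.03-fold (0.784 to 5.12) and Atf3 1.41-fold (0.928 to 2.13). These are far below the ratios that the full rule sets for the same genes. Dio2 was 1.57-fold higher (1.46 to 1.68), Irs2 1.62-fold (1.45 to 1.80), Nr4a2 1.56-fold (1.35 to 1.80), Sik1 1.45-fold (1.31 to 1.61) and Btg2 1.99-fold (1.48 to 2.67). Markers of other cell types were lower, at 0.317 (0.225 to 0.436) for fibroblast, 0.326 (0.203 to 0.501) for skeletal muscle, 0.714 (0.531 to 0.947) for endothelial and 0.687 (0.516 to 0.905) for macrophage markers. The intervals of pericyte, Schwann cell, lymphocyte and red blood cell markers spanned 1.

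By the other 5 genes, 313 nuclei with at least 2 UMIs were set against 2506 with none, and here Nr4a1 was 1.64-fold higher (1.53 to 1.76). Btg2 was 3.01-fold higher (2.17 to 4.14), Ier2 2.13-fold (1.69 to 2.67), Zfp36 1.99-fold (1.37 to 2.82) and Jun 1.56-fold (1.29 to 1.88). Genes of the cAMP list were closer to level, with Nr4a2 at 1.18 (0.957 to 1.44), Irs2 at 1.10 (0.948 to 1.28), Sik1 at 1.14 (0.988 to 1.32) and Dio2 at 1.12 (1.02 to 1.24). Ppargc1a, of the same list, was lower, at 0.894 (0.849 to 0.941). Of 27 genes of the list measured here, 19 were above 1. NF-kB and cytokine genes, which stood at 0.952 by the full rule, summed to 1.11 (1.02 to 1.20), and fat synthesis genes to 0.866 (0.854 to 0.877). The 12 pyroptosis genes, at 1.04 by the full rule (0.940 to 1.14), summed to 1.16 (1.01 to 1.32). Of these, 4 were measured, all 4 above 1. Markers of several other cell types moved in this comparison too. Endothelial markers summed to 1.54 (1.11 to 2.09, over 9 genes), macrophage markers to 1.42 (1.03 to 1.91, 31.4 against 22.1 CPM over 7 genes) and lymphocyte markers to 2.30 (1.36 to 3.75, 13.3 against 5.77 CPM over 6 genes), skeletal muscle markers stood at 0.434 (0.213 to 0.795), and the intervals of fibroblast, pericyte, Schwann cell and red blood cell markers spanned 1. The part of these markers in the NF-kB and pyroptosis sums was not tested. Prlr, among the highest by the full rule, was lower, at 0.453 (0.237 to 0.791).

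Within the nuclei of at least 4 Nr4a1 UMIs, the 279 that held any of the other 5 genes were set against the 439 that held none. Btg2 was 1.68-fold higher (1.08 to 2.63), Zfp36 1.77-fold (1.07 to 2.94), Dusp6, an ERK phosphatase, 1.83-fold (1.22 to 2.77), Jun 1.41-fold (1.11 to 1.79) and Ier2 1.41-fold (1.04 to 1.92). Dio2 was at 0.961 (0.857 to 1.08), Irs2 at 1.01 (0.855 to 1.20) and Sik1 at 1.03 (0.870 to 1.23). Prlr was at 0.429 (0.251 to 0.704). Adipoq, the adipokine gene, was 1.36-fold higher (1.09 to 1.69).

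The nuclei past the threshold were too few at 2 and 12 months to compare, so nuclei with at least 2 rule UMIs were set against those with none in each library. These numbered 131 and 2456 at 2 months, 208 and 4063 at 12 months, and 1749 and 942 at 24 months. Dio2 was higher in all 3, at 1.42 (0.794 to 2.36), 1.32 (1.14 to 1.52) and 1.54 (1.42 to 1.67) in order of age, though the interval at 2 months spans 1. Jun was at 2.95 (2.03 to 4.19), 1.79 (1.14 to 2.71) and 1.25 (1.07 to 1.45). Irs2 was at 0.946 (0.738 to 1.20), 1.65 (1.35 to 2.00) and 1.55 (1.38 to 1.74), and Nr4a2 at 0.868 (0.480 to 1.45), 1.29 (0.962 to 1.69) and 1.52 (1.30 to 1.78). Fasn was at 0.709 (0.610 to 0.821), 0.990 (0.903 to 1.08) and 0.862 (0.833 to 0.891). Ppargc1a was 1.29-fold higher at 12 months (1.23 to 1.35), against 1.10 (0.963 to 1.25) at 2 months and 1.03 (0.998 to 1.07) at 24 months. Markers of other cell types did not stand alike in the 3 comparisons, with endothelial markers at 1.53 (1.03 to 2.22), 1.62 (1.17 to 2.21) and 0.824 (0.639 to 1.07), macrophage markers at 1.70 (1.18 to 2.38), 1.29 (0.885 to 1.83) and 0.757 (0.599 to 0.959), and fibroblast markers at 0.944 (0.495 to 1.64), 1.25 (0.864 to 1.77) and 0.407 (0.327 to 0.506). The differences between ages, and the part of these markers in them, were not tested.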

How the data were processed

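The deposited matrices hold whole UMI counts for 32285 genes, which the authors obtained with Cell Ranger against mm10 and forced to 10000 barcodes per library. The submitters' processing notes give version 7.0.1, while the methods name an earlier one, and whether intron reads were counted is not stated. The methods kept barcodes of 200 to 2000 UMIs and 100 to 3000 genes, to leave out multiplets and droplets of low quality. The window used here lies outside that filter, and 0 of the 886 high nuclei pass it. As written, the filter passes 4211 of the 10000 barcodes at 24 months, while the legend of the paper's first figure gives 30000 nuclei in total. Which barcodes the paper's figures used is therefore not clear. No doublet caller was run. The 8000 UMI maximum and the limit on genes of other types do not single out doublets of adipocyte nuclei with each other. The high class was the deeper one, and the part of doublets in it was not tested. UMIs of a gene were added up within a class and scaled to the class total (CPM). Intervals are exact at the 95% level, Poisson for levels, binomial for shares and conditional binomial for ratios, and cover counting error only. Thinning drew 3000 UMIs from each nucleus with seed 1. Genes named are members of the lists and the 15 with the highest and 15 with the lowest ratio among genes with 20 CPM in either class and 30 UMIs together, without rule, mitochondrial and predicted genes. 1 result that meets this rule is not reported here. The nuclei, lists and comparisons were chosen with earlier results of these data known, so they are no independent support for one another. Symbols given to more than 1 gene identifier were summed. Promoter windows are from RefSeq. The ratio script was tested on simulated counts. Python 3.11.15, numpy 2.4.6, scipy 1.17.1 and pandas 2.3.3 were used. Alternatives changed the depth, the UMI window, the limit on other types, the threshold, the rule genes, the weight of nuclei, the scale, the filter on low counts and the fold.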

Additional observations from a re-analysis of the deposited data

Results flagged for a closer look

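Signal of the rule genes lay outside the nuclei compared. In 24-month barcodes with fewer than 3000 UMIs, 5426 in number, Nr4a1 stood at 369 CPM and Egr1 at 68.1 CPM, above the 43.6 and 3.27 CPM of such barcodes at 2 months and the 42.9 and 9.60 CPM of those at 12 months. For nuclei with at least 2 rule UMIs against none, 4 sums of pathway lists, cell type markers aside, lay on the other side of 1 in a younger library than at 24 months with both intervals clear of 1. They were cAMP signalling and CREB targets with a ratio of 0.980 at 2 months, lipolysis and triglyceride storage with 0.960 at 2 months, the mitochondrial genome with 1.49 at 2 months, and glucocorticoid targets with 0.935 at 12 months. Other lists lay on opposite sides with an interval that spans 1 at 24 months or in the younger library, the widest apart being heat shock with 1.52 (1.41 to 1.63) at 12 months against 0.987 (0.940 to 1.04) at 24 months. None of these differences between libraries was tested, and each rests on 1 library per age.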

How the results depend on the processing

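The limits are 1 library at 24 months, no replicate, and low counts for most immediate early genes. No paired analysis was possible because each age has 1 library. Across 14 alternatives, of which 2 (the rule on Nr4a1 alone, and the removal of nuclei with 3 or more UMIs of another cell type) were chosen after seeing the data, 35 of 60 values of the 5 comparisons stayed within their counting interval or, for counts of genes, within 1.5 times. The share of high nuclei, 25.7%, was 12.8% after thinning to 3000 UMIs, 12.8% at 6 or more UMIs, 35.8% at 3 or more, 9.09% for at least 2 UMIs without Nr4a1 and 20.9% by Nr4a1 alone, as other rules must give. The counts of genes at least 1.5-fold higher and lower, 19 and 14, were 98 and 89 after thinning, 78 and 72 with 4000 to 6000 UMIs, 70 and 78 for 6 or more against 0, and 92 and 43 without Nr4a1, all with fewer UMIs or nuclei in a class. With 10 UMIs and no CPM minimum they were 780 and 1160, and at 2-fold 1 and 3. The lower count was 32 for 3 or more against 0, 22 by Nr4a1 alone and 7 without nuclei of other types. The summed ratio of other immediate early genes, 1.15, was 1.22 after thinning and 1.25 for 6 or more against 0. That of the cAMP list, 1.06, was 1.05 with 4000 to 6000 UMIs, 1.07 for 6 or more against 0 and 1.02 without Nr4a1, and the cause was not tested. Of 492 values of 41 named genes, 408 stayed within their counting interval, 78 left it and 6 turned direction. A turn of direction was counted only for genes at least 1.5-fold higher or lower in the main comparison. Those 6 were all without Nr4a1 in the rule, where Prlr was at 0.453, Nr4a3 0.675, Egfr 1.24, Nnat 1.76, Auts2 1.37 and Dock10 1.20, and the cause was not tested.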
